A study of Mus musculus with 6 samples.

Results

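The genes described here are 6 immunity-related GTPases (IRGs) of the mouse: Irgm1, Irgm2, Igtp, Iigp1, Tgtp1 and Tgtp2. They were taken by gene symbol from a table of 18404 genes, and all 6 are in it. They were singled out because their means were higher in the knockout in these same libraries, so the comparison between groups is given as a description of these libraries, and no p-value is drawn from it for a single gene.

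IRG proteins are interferon-induced GTPases of cell-autonomous immunity. The regulatory IRGM proteins (Irgm1, Irgm2 and Igtp, which is also called Irgm3) sit on the cell's own membranes and hold the effector IRG proteins inactive there. The effectors (Iigp1, also called Irga6, and Tgtp1 and Tgtp2, the copies of Irgb6) load onto the vacuoles of parasites such as Toxoplasma gondii, helped by the autophagy conjugation proteins and the guanylate-binding proteins, and break them open. Interferon gamma is their best known inducer, and type I interferons also induce them.

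The libraries are of ear skin RNA taken on postnatal day 3: 3 are controls and 3 come from pups with an endothelial knockout of Kdr, the VEGFR2 gene (ecko). The pups of both groups carry the label of tamoxifen treatment, which the series text starts at postnatal day 1 at 60 µg per day, and the series name gives 48 h. The controls are described as littermates with no further genotype, and the promoter that drives the recombinase is not given in the sources used here. No label says whether replicates are separate animals, so the spread between libraries may be partly technical.

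The libraries held 16987130 to 17979182 expected counts, that is, estimated reads per gene. Levels are given as CPM, counts scaled to a common library size. Kdr was at 90.0 ± 12.9 CPM in the controls and 21.7 ± 2.4 CPM in ecko (SD, n = 3). Skin markers were abundant, with summed levels of 21340 to 28110 CPM for 8 keratinocyte genes and of 34700 to 40420 CPM for 7 fibroblast genes over all libraries. Control 3 stood apart. The mean chi-square per gene between its counts and those of another library was 13.2 to 19.8, against 4.18 to 11.5 between the other libraries. Log2 fold changes of the 6 IRG genes, and of some other genes, are given with and without control 3. The Y-linked gene Ddx3y had 4 and 6 counts in control 2 and ecko 3, and 1445 to 1641 in the other libraries.

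The promoter sequences are shown first because they hold the elements through which interferons are known to act. The interferon-stimulated response element (ISRE) binds proteins of the IRF family, and the gamma-activated site (GAS) takes part in the response to interferon gamma. RefSeq promoters (GRCm38.p6) were at hand for 5 of the 6 genes, all on chromosome 11. Each line gives the 100 bases before the annotated start, 5′ to 3′ along the gene. Capitals mark the ISRE core (GAAA, any 2 bases, GAAA) and the GAS core (TTC, any 3 bases, GAA), searched on both strands in the 250 bases before the start.
Irgm1: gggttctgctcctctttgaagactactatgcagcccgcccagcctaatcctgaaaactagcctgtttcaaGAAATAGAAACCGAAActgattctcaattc
Irgm2: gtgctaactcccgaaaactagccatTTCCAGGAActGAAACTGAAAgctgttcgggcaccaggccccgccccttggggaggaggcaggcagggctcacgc
Igtp: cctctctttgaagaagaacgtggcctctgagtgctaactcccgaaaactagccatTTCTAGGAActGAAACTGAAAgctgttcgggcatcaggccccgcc
Tgtp1: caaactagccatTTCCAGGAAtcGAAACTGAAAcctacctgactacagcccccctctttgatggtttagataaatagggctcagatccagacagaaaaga
Tgtp2: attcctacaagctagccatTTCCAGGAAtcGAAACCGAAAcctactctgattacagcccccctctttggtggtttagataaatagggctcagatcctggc

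The windows lie at chr11:48871421-48871520 for Irgm1 (minus strand), chr11:58214877-58214976 for Irgm2 and chr11:58199456-58199555 for Igtp (plus strand), and chr11:48992247-48992346 for Tgtp1 and chr11:49064213-49064312 for Tgtp2 (minus strand). All 5 held an ISRE core, which 3.46% of 27025 genes with a RefSeq promoter hold in a window of the same length. In Irgm1 a pair of ISRE cores overlap and no GAS core was found. The other 4 held a GAS core, which 8.13% of genes hold, and in each of the 4 exactly 2 bases separate it from the ISRE core that follows. That joint pattern, a GAS core, any 2 bases and an ISRE core, was noticed in these windows and then counted: it stood before 5 of the 27025 genes (0.0185%), Igtp, Irgm2, Tgtp1, Tgtp2 and Gm12185, a further IRG gene. Over 70 bases aligned at the ISRE core nearest the start without gaps, Irgm2 and Igtp were identical at 68 and Tgtp1 and Tgtp2 at 53, while Irgm1 matched the others at 32 to 37. A list of other IRG genes, which leaves out Gm12185, held 5 with a RefSeq promoter. Of these only Gm12250 held an ISRE core, and only Gm12250 a GAS core. In 9930111J21Rik1, which held neither core, every ecko library was also above every control library. Whether the cores bear on the fold changes was not tested. Matches of letters do not show that a factor binds there in these samples.

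The genes stand in groups on the genome (RefSeq, GRCm38.p6). Irgm1 (Entrez 15944) spans chr11:48865245-48871420, Tgtp1 (21822) chr11:48985329-48992246 and Tgtp2 (100039796) chr11:49057196-49064212, all on the minus strand. Igtp (16145), at chr11:58199556-58207592, and Irgm2 (54396), at chr11:58214977-58222783, lie on the plus strand with 7384 bases between them. Iigp1 (60440) is on chromosome 18.

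How well reads tell the members apart differs between them. The coding sequences of Tgtp1 and Tgtp2 (GENCODE M21) were identical at 1241 of 1245 bases, and 89.4% of the 50-base words of the Tgtp1 transcript occur in Tgtp2. Their deposited counts were not whole numbers in any of the 6 libraries, so reads were divided between the copies by estimation, and the sum of both is the firmer value. For Igtp 12.3% of 50-base words occur in Irgm2, and for Irgm1, Irgm2 and Iigp1 0.8%, 7.3% and 3.2% occur in any other gene. The counts of these 4 genes were whole in every library. GENCODE M21 also lists a long Irgm2 transcript that runs across Igtp on the same strand, and whether the authors' counting used it is not given in the sources used here. Between the regulatory genes coding identity was 63.0% to 67.3%, and 57.4% to 57.6% between Iigp1 and the Tgtp copies.

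All 6 genes had at least 10 expected counts in every library, and all passed the filter on low counts. In each of the 6, every ecko library was above every control library, where 7.55% of the 14920 genes tested were higher without overlap and 8.11% lower. The median log2 fold change was 1.1 (2.14-fold), against -0.002 over all genes tested. By edgeR's quasi-likelihood test adjusted over all genes 0 of the 6 passed 0.05, while 0% of all genes were called higher and 0.0067% lower (1 gene). Unadjusted, 6 of 6 had a p under 0.05 with edgeR (4.92% of all genes were higher and 4.1% lower at that level) and with limma-voom (5.15% higher). Adjusted, limma-voom called 0 (0% of all genes higher, 0.0067% lower). DESeq2 called 4 of the 6 (0.583% of all genes, higher), leaving out Irgm2 and Tgtp1, and edgeR with the replicate number as a block called 5 (0.59% of all genes, higher). As the genes were chosen on this same contrast, none of these counts is separate evidence. Control 3 was the lowest control and ecko 3 the lowest ecko library in all 6 by counts, and without control 3 the median was 0.87.

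**Figure D1:**
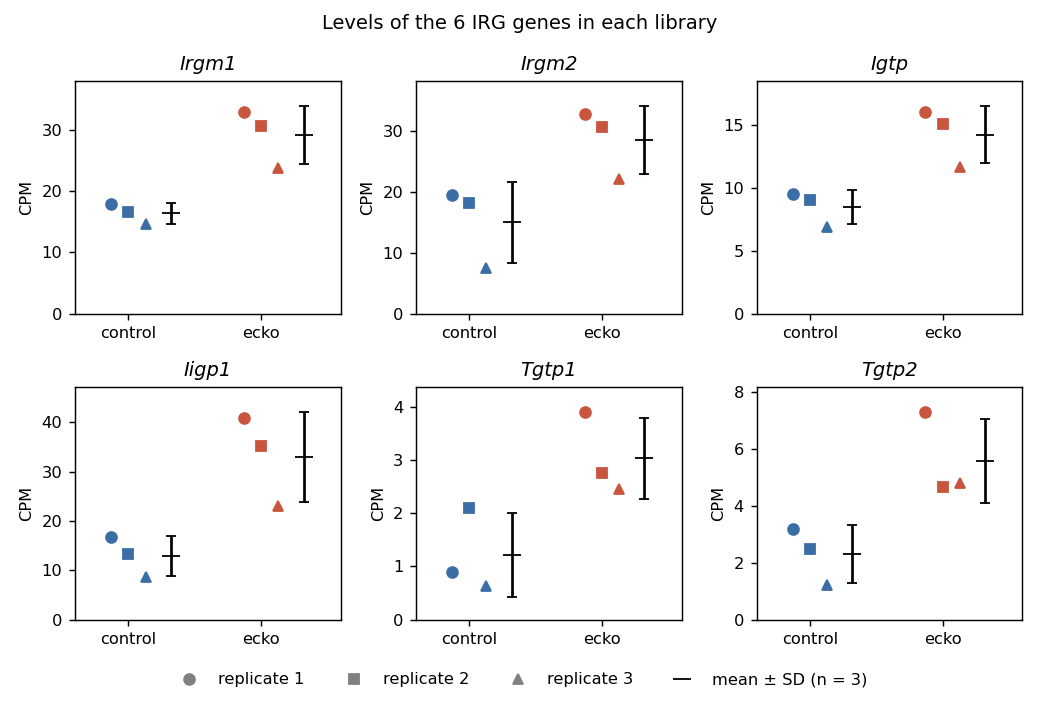
CPM of each IRG gene (y axis, linear from 0) in the 3 control (blue) and 3 ecko (red) libraries, 1 point per library with a marker shape per replicate number, and mean ± SD in black. In all 6 genes the ecko points lie above the control points, and control 3 lies lowest among the controls.

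Among the regulators, Irgm1, which also takes part in autophagy and mitochondrial quality control, had counts of 319, 300 and 253 in controls 1 to 3, against 591, 547 and 406 in ecko 1 to 3. Its level was 16.4 ± 1.68 CPM in the controls and 29.1 ± 4.77 CPM in ecko (SD, n = 3). The log2 fold change was 0.83 ± 0.13 (SE), or 1.78-fold. The controls were close together, and the gap between the highest control and the lowest ecko library was 5.82 CPM, over 3 times the control SD. Over the controls Irgm1 had the narrowest range of the 6 genes, 1.23-fold.

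Igtp counts were 169, 163 and 120 among controls, against 288, 269 and 200 among ecko libraries. Its level was 8.48 ± 1.37 CPM in the controls and 14.3 ± 2.28 CPM in ecko, a log2 fold change of 0.75 ± 0.16 (1.68-fold). It kept an almost fixed proportion to Irgm1, 0.474 to 0.543 of its count in the controls and 0.487 to 0.493 in ecko.

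Irgm2 counts were 349, 328 and 129 among controls, against 590, 548 and 380 among ecko libraries. That is 15.1 ± 6.65 CPM against 28.6 ± 5.61 CPM, with a log2 fold change of 0.92 ± 0.36 (1.90-fold). The SD of the controls comes from 1 library: control 3 stood at 0.394 of the mean of the other controls, while for Irgm1 this was 0.845. Without control 3 the log2 fold change of Irgm2 was 0.60, and those of Irgm1 and Igtp were 0.76 and 0.63. The count of Irgm2 was 0.510 of that of Irgm1 in control 3 and 0.936 to 1.09 of it in the other 5 libraries.

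With all libraries in the fit, the fold changes of the 3 effectors were above those of the 3 regulators, while without control 1 Tgtp1 (1.14) was below Irgm2 (1.16). Iigp1, which lines the vacuole of Toxoplasma gondii, had counts of 298, 240 and 152 among controls, against 733, 627 and 393 among ecko libraries. Its level was 12.9 ± 4.0 CPM against 33.0 ± 9.10 CPM, a log2 fold change of 1.35 ± 0.29 (2.55-fold), within the SE of those of both Tgtp copies. Iigp1 was at 0.601 to 0.934 of the Irgm1 count in the controls and at 0.968 to 1.24 of it in ecko. The proportion did not overlap between groups, but control 1 (0.934) and ecko 3 (0.968) were close. Whether that gap exceeds counting error was not tested. The share of Iigp1 in the summed CPM of the 6 genes was 21.5% to 24.7% in the controls and 26.1% to 30.5% in ecko.

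Tgtp1 was given 15.67, 37.88 and 10.68 expected counts among controls, against 69.87, 48.76 and 42.42 among ecko libraries. Tgtp2 was given 57.33, 45.12 and 21.32, against 131.13, 83.24 and 81.58. The log2 fold changes were 1.31 ± 0.39 (2.48-fold) for Tgtp1 and 1.27 ± 0.32 (2.42-fold) for Tgtp2. Summed before the fit, the copies had a log2 fold change of 1.29 ± 0.31 (2.44-fold), from 3.51 ± 1.47 to 8.61 ± 2.23 CPM. The part of the sum given to Tgtp1 ran from 21.5% in control 1 to 45.6% in control 2, and stayed at 34.2% to 36.9% in ecko. The pair was at 0.126 to 0.277 of the Irgm1 count in the controls and 0.241 to 0.340 in ecko, which overlap.

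Without control 3 the log2 fold changes were 1.14 for Iigp1, 1.02 for Tgtp1 and 0.98 for Tgtp2, all above those of the 3 regulators in the same fit. Without control 2 that of Tgtp1 was 1.97, over 1.5 times its value with all libraries. Whether effectors and regulators differ was not tested, since both come from the contrast on which the genes were chosen.

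**Figure D2:**
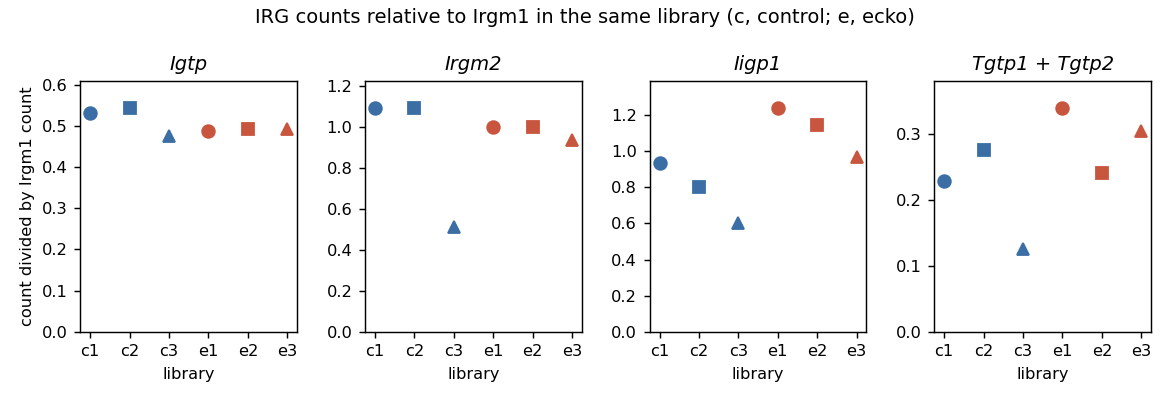
Count of each other IRG gene divided by the Irgm1 count of the same library (y axis, linear from 0), for controls 1 to 3 (c, blue) and ecko 1 to 3 (e, red). Igtp stays near 0.5 throughout, and Irgm2 lies at 0.510 in control 3 and at 0.936 or more elsewhere. Iigp1 lies higher in all ecko libraries, with ecko 3 only narrowly above control 1.

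Levels of different genes were compared per kilobase of transcript (CPM per kb), with GENCODE M21 lengths. In the controls Irgm1 was highest at 7.25 ± 0.75 CPM per kb. Irgm2 (4.27 ± 1.89), Igtp (4.19 ± 0.68) and Iigp1 (4.14 ± 1.28 CPM per kb) followed and did not differ beyond their spread. Tgtp2 (0.819 ± 0.359) and Tgtp1 (0.429 ± 0.277 CPM per kb) came last, and their spreads overlap. Against the 14558 tested genes with a length, Irgm1 exceeded 42.5% in the controls, Irgm2, Igtp and Iigp1 29.1% to 29.7%, and the Tgtp copies 4.7% and 9.0%. In ecko the order was Irgm1 (12.9 ± 2.11), Iigp1 (10.6 ± 2.92), Irgm2 (8.11 ± 1.59) and Igtp (7.06 ± 1.13 CPM per kb), each pair of neighbours within their spread, then Tgtp2 (1.99 ± 0.527) and Tgtp1 (1.07 ± 0.269 CPM per kb).

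Together the 6 genes summed to 67.9, 61.6 and 39.6 CPM in the controls and 133.7, 119.0 and 87.9 CPM in ecko, which is 56.4 ± 14.9 against 113.6 ± 23.4 CPM (SD, n = 3). The groups did not overlap. The libraries with almost no Ddx3y counts were ecko 3 (87.9 CPM) and control 2 (61.6 CPM). As the sums did not overlap, any split of the libraries puts ecko higher, so a split by Ddx3y cannot serve as a test. Whether the difference in Ddx3y bears on the sums was not tested. In RNA of whole skin, more cells that express a gene and more RNA per cell cannot be told apart.

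Other IRG genes were higher in ecko in part. For the counts without overlap in this and later lists, the shares over all genes tested were 7.55% higher and 8.11% lower. Of 9 further IRG genes on a list of relatives, which leaves out Ifi47 and Gm12185, 7 passed the filter, all with a higher mean in ecko, and 3 had groups without overlap; edgeR called 0, with 3 at an unadjusted p under 0.05, DESeq2 called Gm12250 and Gm4951, and limma-voom 0. Gm4951, on chromosome 18 near Iigp1, had counts of 48, 45 and 16 among controls, against 152, 116 and 90 among ecko libraries (log2 fold change 1.72 ± 0.34). Gm12250, the Irgb10 gene beside Igtp, whose product attacks bacterial membranes, had 38, 35 and 13 counts against 109, 83 and 43 (1.45 ± 0.41). 9930111J21Rik1 (1.25 ± 0.35) had groups without overlap as well, with 11.22 to 35.04 expected counts among controls, against 45.41 to 75.42 among ecko libraries. In control 3 these 3 genes stood at 0.339 to 0.368 of the mean of the other controls, as low as Irgm2.

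For Gm5431 (0.81 ± 0.36), F830016B08Rik (0.42 ± 0.20), 9930111J21Rik2 (0.38 ± 0.29) and Irgq (0.11 ± 0.08) the groups overlapped. The log2 fold change of Gm5431 was 0.52 without control 3. Irgq, an IRG relative that lacks the interferon response of the family, had 716 to 886 counts among controls, against 853 to 895 among ecko libraries. Gm4841 (2 to 5 counts against 8 to 22) and the testis gene Irgc1 (1 to 3 against 0 to 2) were below the filter.

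**Figure D3:**
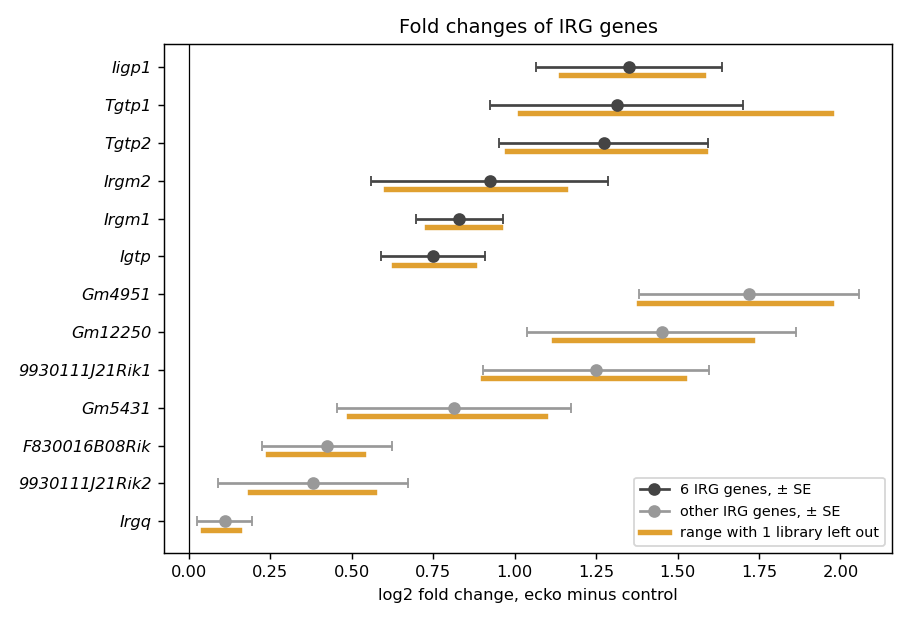
Log2 fold change, ecko minus control, of the 6 IRG genes (dark) and 7 other tested IRG genes (grey), as points with SE bars, and in orange the range when 1 library is left out. With all libraries the 6 genes lie between 0.75 and 1.35, and all ranges with 1 library left out stay above 0. For the 6 genes, whose groups did not overlap, leaving out a library could hardly reverse the sign.

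The interferon genes Ifng, Ifnb1, Ifnk and Ifne were almost without reads. Of 13 genes listed for the type I pathway 11 had values, and no interferon alpha gene is reported here. Ifng had 0 counts in all 3 controls, against 0, 1 and 3 among ecko libraries, and a count of 0 allows up to 3 counts at this depth, so no difference was detectable. Ifnb1 had 1 count in control 2 and 0 in the other 5 libraries, and the skin interferon genes Ifnk and Ifne had fewer than 3 counts in every library.

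Of the interferon gamma pathway 12 of 15 tested genes had a higher mean in ecko and 3 a lower one, and 5 were higher without overlap. The interferon gamma receptor genes Ifngr1 and Ifngr2 had log2 fold changes of -0.03 ± 0.07 and 0.09 ± 0.07, and the kinase genes Jak1 and Jak2 -0.06 ± 0.06 and 0.03 ± 0.08, with groups that overlapped. Irf1 (0.46 ± 0.12), a factor needed for many interferon gamma responses, and Nlrc5 (0.48 ± 0.16), which drives MHC class I genes, were higher in ecko without overlap. Irf8 (0.24 ± 0.17) and the feedback inhibitor Socs1 (0.01 ± 0.23) overlapped. Of 15 tested genes of this pathway edgeR and DESeq2 called 0, with 5 at an unadjusted edgeR p under 0.05, and the median was 0.09.

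In the type I pathway 7 of 8 tested genes had a higher mean and 1 a lower one, and 5 were higher without overlap. The receptor genes Ifnar1 (0.08 ± 0.06) and Ifnar2 (0.16 ± 0.09) and the kinase gene Tyk2 (0.15 ± 0.10) had small differences, without overlap in Ifnar2. Irf7, the interferon-induced amplifier, had counts of 339, 335 and 202 among controls, against 830, 585 and 490 among ecko libraries (1.13 ± 0.23). Usp18, which removes ISG15 and damps the type I receptor, had 60, 50 and 28 counts against 168, 125 and 98 (1.51 ± 0.27). Without control 3 the log2 fold changes of Irf7 and Usp18 were 0.94 and 1.27. Of 8 tested genes edgeR called 0, with 4 at an unadjusted p under 0.05, and DESeq2 called Irf7, Irf9, Stat2 and Usp18.

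**Figure D4:**
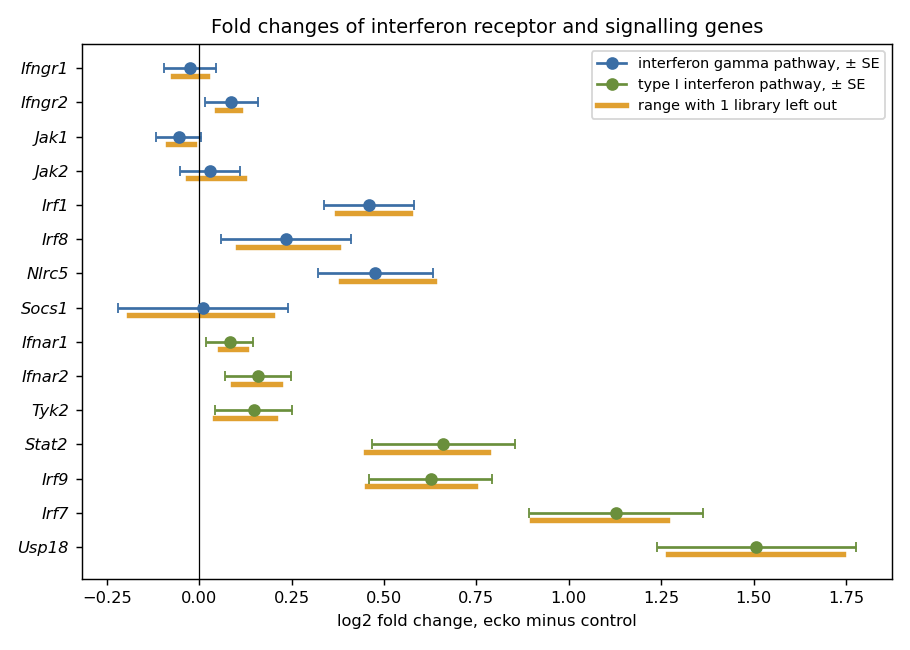
Log2 fold change, ecko minus control, of genes of the interferon gamma (blue) and type I interferon (green) pathways, as points with SE bars, and in orange the range when 1 library is left out. Receptor and kinase genes lie near 0, between -0.06 and 0.16, and Irf7 and Usp18 lie highest at 1.13 and 1.51.

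Genes that interferon gamma favours did not share 1 direction. Of 14 tested, 8 means were higher and 6 lower in ecko (median log2 fold change 0.30); edgeR called 0, with 6 higher and 1 lower at an unadjusted p under 0.05, and DESeq2 called Gbp2 and Gbp6. The groups did not overlap, higher in ecko, in Cxcl9, Gbp2, Gbp4, Gbp5, Gbp6 and Irf1, and lower in ecko in Nos2, the inducible nitric oxide synthase gene. Among 22 tested genes that help IRG proteins reach vacuoles, 13 had a higher and 9 a lower mean, with a median of 0.14. Those higher without overlap were the guanylate-binding protein genes Gbp2, Gbp3, Gbp4, Gbp5, Gbp6, Gbp7 and Gbp9, Trim21 and Gabarapl1, and Atg3 of the conjugation system was lower. By edgeR 0 passed, with 9 higher and 1 lower at an unadjusted p under 0.05, and DESeq2 called Gbp2, Gbp3, Gbp6, Gbp7 and Gbp9. Gbp6, Gbp7 and Gbp9 had the smallest unadjusted p of the list, with 1.35 ± 0.23, 0.77 ± 0.17 and 0.72 ± 0.16.

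By Pearson's r over the 6 libraries, the 5 of 14914 other tested genes whose log2 CPM was most like the mean of the 6 IRG genes were Pik3ca (r = 0.9996), Ifi47 (0.9962), Gbp9 (0.9959), Gm4951 (0.9955) and Oasl2 (0.9953). The groups are apart in all 5, so r holds both the group difference and the spread within groups. With the group means taken out, r was 0.982 to 0.998. As the 5 genes were picked for the highest r of 14914 over only 6 libraries, these values are not separate evidence. Pik3ca shared the order of the libraries but with a log2 fold change of 0.17 ± 0.07. Ifi47, itself an IRG gene also called Irgd, had counts of 116, 107 and 59 among controls, against 235, 188 and 151 among ecko libraries (1.03 ± 0.24), and the oligoadenylate synthetase-like gene Oasl2 had 1.58 ± 0.40.

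Markers of cells that can express IRG genes were set beside these values. Means of 11 of 12 macrophage markers were higher in ecko (median log2 fold change 0.12, highest 0.30); Cd68 and Mertk did not overlap. Their summed level was 863 to 984 CPM in the controls and 945 to 1029 CPM in ecko. Of 8 tested T and NK cell markers 4 were higher, with sums of 16.7 to 20.7 and 16.1 to 21.4 CPM. Of 7 tested neutrophil markers 4 had a higher and 3 a lower mean, with a median log2 fold change of 1.15, which is as large as the IRG median, and a range of -1.93 to 1.41. Csf3r was higher and Camp lower without overlap. Their sums of 10.8 to 23.6 CPM in the controls and 14.5 to 52.0 CPM in ecko overlapped, and Ly6g had under 3 counts in every library.

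Langerhans and dendritic cell markers (3 of 8 higher; 147 to 167 against 148 to 173 CPM) and lymphatic markers (2 of 7 higher; 180 to 193 against 172 to 196 CPM) overlapped. For B cells the only marker past the filter had a lower mean, with sums of 1.33 to 2.25 and 1.52 to 2.08 CPM, and Pax5 had under 3 counts in every library. Gamma delta T cell markers (1 of 2 higher) summed to 39.5 to 51.2 and 40.6 to 47.9 CPM, with Il17a under 3 counts in every library. Endothelial markers were lower in ecko in 9 of 10, and their sums did not overlap (485 to 581 against 443 to 471 CPM). Of these markers Pecam1, Cdh5, Tie1, Emcn and Robo4 were lower without overlap. The 8 skeletal muscle markers all had a higher mean, with sums of 5350 to 9579 and 7496 to 9182 CPM. By edgeR no gene of these lists passed in either direction, with 3 macrophage and 2 neutrophil genes higher and 4 endothelial and 1 neutrophil gene lower at an unadjusted p under 0.05, while DESeq2 called Csf3r higher and limma-voom called 0. The part of these cells in the IRG values was not tested.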

How the data were processed

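The authors deposited 1 table of expected counts per gene for 6 libraries, per the labels poly(A)-enriched RNA; 10.1% to 10.4% of values per library are not whole. Per the submitters' processing notes, the tools were RSEM 1.3.1, Bowtie2 2.4.5 and HISAT2 2.2.1, with the build GRCm38.p6; annotation and strand setting are not given in the sources used here. Expected counts were rounded and tested with edgeR 4.0.16 (R 4.3.3): filterByExpr with a minimum count of 10, TMM, glmQLFit with robust estimation, 2-sided p adjusted by Benjamini-Hochberg over 14920 genes, threshold 0.05. SE is the absolute log2 fold change over the square root of F. CPM uses TMM-scaled library sizes; log2 CPM has a prior count of 2. DESeq2 1.42.0 and limma-voom (limma 3.58.1) were alternatives, beside those of the closing section. The fits were also run on simulated data, and the outcome is not given here. Reads carry no molecular identifiers, so limits from counts cover counting error only.

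The members and lists were chosen with earlier results of these data known. Named were the members, other IRG genes of the table, set receptor and signalling genes, the 3 smallest unadjusted p of the target and partner lists, the 5 most alike genes, Kdr and Ddx3y; of cell markers only those that singled themselves out by non-overlap, calls or absence were named. Gm12185 and Ifi47 as IRG genes, and the joint GAS and ISRE pattern, were picked out after their values were seen. Gene identifiers matched RefSeq for 18353 of 18404 genes, and transcript lengths were found for 17578. A gene of the interferon pathway lists is not reported here.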

Additional observations from a re-analysis of the deposited data

How the results depend on the processing

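The 6 IRG genes kept a positive log2 fold change under every alternative run: DESeq2 size factors, no low-count filter, at least 1 CPM in at least 3 libraries, DESeq2, limma-voom, no robust estimation, unrounded counts, the replicate block, the Tgtp sum and leaving out each library. Of these values 77 stayed on the same side of the threshold and 9 passed it, 4 with DESeq2 and 5 with the replicate block. In all 6 genes the groups did not overlap, so leaving out a library could hardly reverse the sign of a fold change. The median of the 6 ran from 0.87 (without control 3) to 1.22 (without ecko 3). The number of the 6 called was 4 with DESeq2 and 5 with the replicate block, which left out Tgtp1. Pathway and other IRG genes called numbered 11 of 59 tested with DESeq2 and 14 with the block, and cell type markers 1 with each. Over all genes tested, 0.583% were called higher with DESeq2 and 0.59% with the block. The cause was not tested.

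No label says whether samples of equal replicate number are paired. Deviations from the group mean of equal numbers correlated across genes at 0.162, -0.237 and -0.073. Control 2 correlated best with ecko 3 (0.336), both with almost no Ddx3y counts. With 3 libraries per group, these correlations cannot decide whether equal numbers are paired. With 1 library left out, genes near 0 changed sign: Ifngr1 ran from -0.071 to 0.022, Jak2 from -0.031 to 0.122, Socs1 from -0.189 to 0.197 and Ddx3y from -0.579 to 0.588. Depth limits the genes below the filter on low counts, such as Ifng and Ifnb1, which were not tested.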

Other observations

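A further IRG gene, Gm12185 (chr11:48904656-48927182, between Irgm1 and Tgtp1), came to notice only through the shared GAS and ISRE pattern before its start. Its expected counts were 2.02, 2.03 and 3 among controls, against 6.12, 6 and 8 among ecko libraries, below the filter on low counts, and was not tested. Ifi47 (chr11:49076587-49096987), an IRG gene outside the 6 and the list of relatives, lies beyond Tgtp2 on the same chromosome.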
